A study of Saccharomyces cerevisiae with 6 samples.

Results

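Wild-type cells of Saccharomyces cerevisiae were compared between proline medium and glutamine medium, over all protein-coding genes. The genes were all rows of the deposited table that are annotated as a gene and have an ORF name starting with Y or Q, which gave 5791 of 5795 ORFs and left out the 4 ORFs of the 2-micron plasmid. The comparison rested on 4 of the 6 libraries of the study, 2 from wild type in proline and 2 from wild type in glutamine, and the 2 libraries of dal80Δ cells in proline (MATa, ura3 his3 trp1, dal80::kanMX) entered the estimate of the spread and served as MATa levels for the a-cell genes. All 4 cultures were of strain 25T0b (FY background, MATα, ura3 his3 trp1), harvested at mid-log from glucose minimal medium, and the labels give the nitrogen source as the difference between them. The methods name uracil, histidine and tryptophan as supplements and do not say in which cultures they were used. Each medium was sampled as 2 biological replicates of 1 haploid strain, so the p-values below measure the spread between these cultures.

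Glutamine is a preferred nitrogen source. While it is present, the GATA activators Gln3 and Gat1 are kept from their targets and genes for the use of poor nitrogen sources stay silent, which is called nitrogen catabolite repression (NCR). Proline is a poor source that cells take up with permeases and oxidize in mitochondria to glutamate, and growth on it relieves NCR. The description here goes beyond the known NCR genes to the rest of the transcriptome, in a medium where glucose is supplied throughout.

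Values are scaled reads unless said otherwise, which are the reads on an ORF after the authors applied 1 factor to the whole library. The libraries held 12550777 and 12304015 ORF reads in proline, against 16519210 and 17079133 in glutamine. Of 5791 ORFs, 5645 had enough reads to be tested. A gene counted as called if limma gave it an adjusted p (Benjamini-Hochberg) no greater than 0.01 and its fold change was 2 or more in either direction. In proline 733 genes (13.0%) were called higher and 878 (15.6%) lower, 28.5% of the tested genes in all. These shares, over genes of all levels, are the background for every count below. In all 1611 called genes, and in 4668 (82.7%) of the tested genes, the proline libraries did not overlap the glutamine libraries. Non-overlap of a called gene is therefore no further support for its call. Of 205 genes that the authors list from earlier nitrogen screens, 93 were higher and 18 lower, so 640 of the higher genes (87.3%) and 860 of the lower genes (97.9%) lay outside them. Genes annotated as uncharacterized made up 138 (18.8%) of the higher genes and 70 (7.97%) of the lower genes, beside 758 (13.4%) of all tested genes. In RNA from whole cultures, a change in the share of cells that express a gene and a change of its RNA per cell cannot be told apart.

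The proline transcriptome was spread over more genes. In proline 282 and 273 ORFs were needed to reach 50% of the ORF reads of a library, against 128 and 124 in glutamine. The 10 most read ORFs took 9.81% and 9.12% of ORF reads in proline, against 17.7% and 18.8% in glutamine. The libraries of the media did not overlap in either measure, which depends on no scaling. Genes called higher took 20.4% and 18.3% of reads in proline, against 3.19% and 2.78% in glutamine, and genes called lower took 31.6% and 34.5% in proline, against 67.8% and 67.7% in glutamine. The direction of these shares follows from the calls, which were made on the same libraries, so only their size is described. These calls also went with level. When the tested genes were split into 5 equal classes by density (scaled reads per nucleotide, the geometric mean of both media), 25.2% of the lowest class were called higher and 3.81% lower, while 6.91% of the highest class were called higher and 45.9% lower. The median log2 fold change was 0.57 in the lowest and -0.93 in the highest class as deposited, and 1.48 and -0.01 with libraries scaled by totals.

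**Figure D1:**
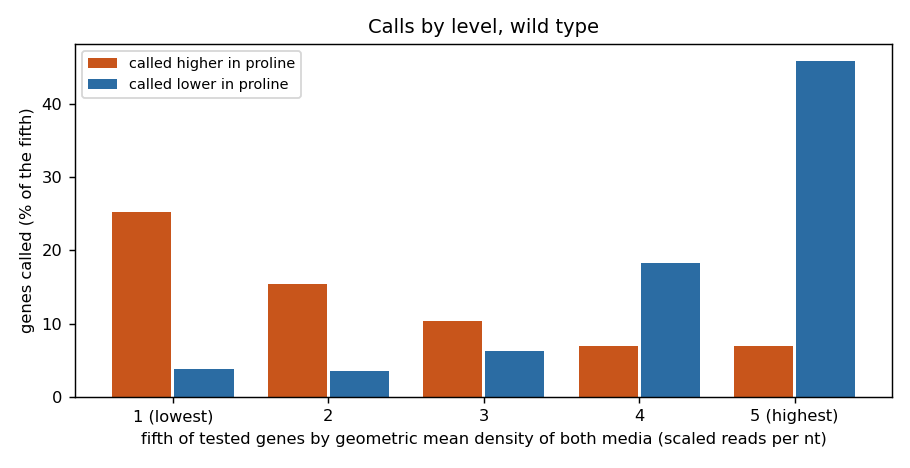
Percent of tested genes called higher (orange) or lower (blue) in proline, by class of the geometric mean density of both media in scaled reads per nucleotide, with 5 classes of 1129 genes. The share called higher is 25.2% in the lowest class and 6.91% in the highest, and the share called lower reaches 45.9% in the highest.

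The factors of the deposited table put the median gene at a log2 fold change of 0.04, and the scaled ORF reads of a proline library then add up to 0.529 times those of a glutamine library. Division by the total of ORF reads, which the methods describe, put the median gene at 0.96 and called 2661 genes higher and 189 lower. All 733 genes called higher kept that call under totals, 189 of the 878 lower genes kept theirs, and no called gene took the opposite call. Of the genes named below as lower, ATG27, BAT1, BUD3, FKH1, FUM1, ATP2, CYC1, KEI1, PMA1, GRS1, ZRC1 and RSP5 were not called with totals. So the counts of most lists are given below under both scalings, and for some lists the share of ORF reads within a library, which no factor touches. With 2 libraries against 2 no exact permutation test of a share can go below p = 0.333, so shares are given as values only.

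Genes that report on the media and the strain were read first. PUT1, the proline oxidase gene, had 29005 and 28142 scaled reads in proline, against 106 and 154 in glutamine, and PUT2, the next enzyme of the pathway, had 11327 and 11575 in proline, against 1309 and 1723 in glutamine. GAP1, the general amino acid permease gene, had 71073 and 68427 in proline, against 7563 and 10523 in glutamine. All 3 genes were several fold higher in both proline libraries than in either glutamine library. HIS3 had 1 and 0 reads in proline, against 0 and 1 in glutamine, in this his3 strain. The allele at ura3 is not described, and URA3 had 215 and 223 scaled reads in proline, against 591 and 458 in glutamine, while TRP1 had 16.5 and 25.6 in proline, against 16 and 24.6 in glutamine. The defining α-cell genes MF(ALPHA)1, MF(ALPHA)2, STE3 and SAG1 were all read in every library, with a sum of 72859 and 56143 scaled reads in proline, against 77866 and 67743 in glutamine, and the 4 genes were not called. The a-cell genes, which a MATα strain should hold off, were read as well and were higher in proline, with values below.

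Outside the earlier screens, the 15 largest rises held genes of mating, spore formation, amino acid metabolism and several of unknown function. The largest was in MFA1 (YDR461W, chromosome 4 from 1385176 to 1385286 of R64), a gene for the a-factor pheromone that a cells make, with 354 and 388 scaled reads in proline, against 4 and 4.92 in glutamine (log2 fold change 6.10, SE 0.16, limma adjusted p = 1.1e-06). YSW1, a gene for prospore membrane formation, had 1234 and 1333 in proline, against 18 and 38.3 in glutamine (log2 fold change 5.55, SE 0.30, limma adjusted p = 1.3e-05). It starts at 537876 of chromosome 2, after the end of RTC2 at 537465 on the same strand. RTC2, described below, was more highly read and also called higher, and whether its reads add to those of YSW1 was not tested. AGA2, the adhesion subunit of a-agglutinin, had 291 and 191 in proline, against 5 and 5.90 in glutamine (log2 fold change 5.20, SE 0.26, limma adjusted p = 1.1e-05). For each of these genes both glutamine libraries were close to 0 and both proline libraries stood well above them. FMP23, a gene of unknown role whose product was found in mitochondria, had 433 and 371 in proline, against 12 and 8.85 in glutamine, and ECM13, of unknown function, had 952 and 1699.7 in proline, against 50.0 and 31.5 in glutamine. SPO19, another gene of the prospore membrane, had 136 and 187 in proline, against 11 and 10.8 in glutamine. Non-overlap between the media was a condition for the 15 largest rises and falls.

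Other large rises, except those of ARO10 and YHR054C, were in genes with more reads in glutamine. YPR036W-A, a short ORF of unknown function, had 18977 and 21451 scaled reads in proline, against 1366 and 1413 in glutamine (log2 fold change 3.86, SE 0.18, limma adjusted p = 7.3e-06), and it was among the 10 densest ORFs in proline. YGL117W, also of unknown function, had 4580.2 and 4037 in proline, against 275 and 219 in glutamine, and BSC5 had 2687 and 2052 in proline, against 110.0 and 121 in glutamine. The proline libraries of these 3 genes were close to each other and far above both glutamine libraries. TMT1, the trans-aconitate methyltransferase gene, had 5518 and 5687 in proline, against 377 and 352 in glutamine, and ARO10, the decarboxylase gene of the Ehrlich pathway, had 188 and 159 in proline, against 6 and 18.7 in glutamine. YKR075C, a gene of unknown function, had 740.4 and 2139 in proline, against 70.0 and 83.6 in glutamine, so its proline libraries differed more from each other than those of the other genes here. YHR054C had 203 and 262 in proline, against 14 and 11.8 in glutamine. It belongs to a repeated region, and reads that fit several copies are not uniquely mapped, so its level is uncertain. ARG3 and STE2 completed the 15 and are described with their groups.

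**Figure D2:**
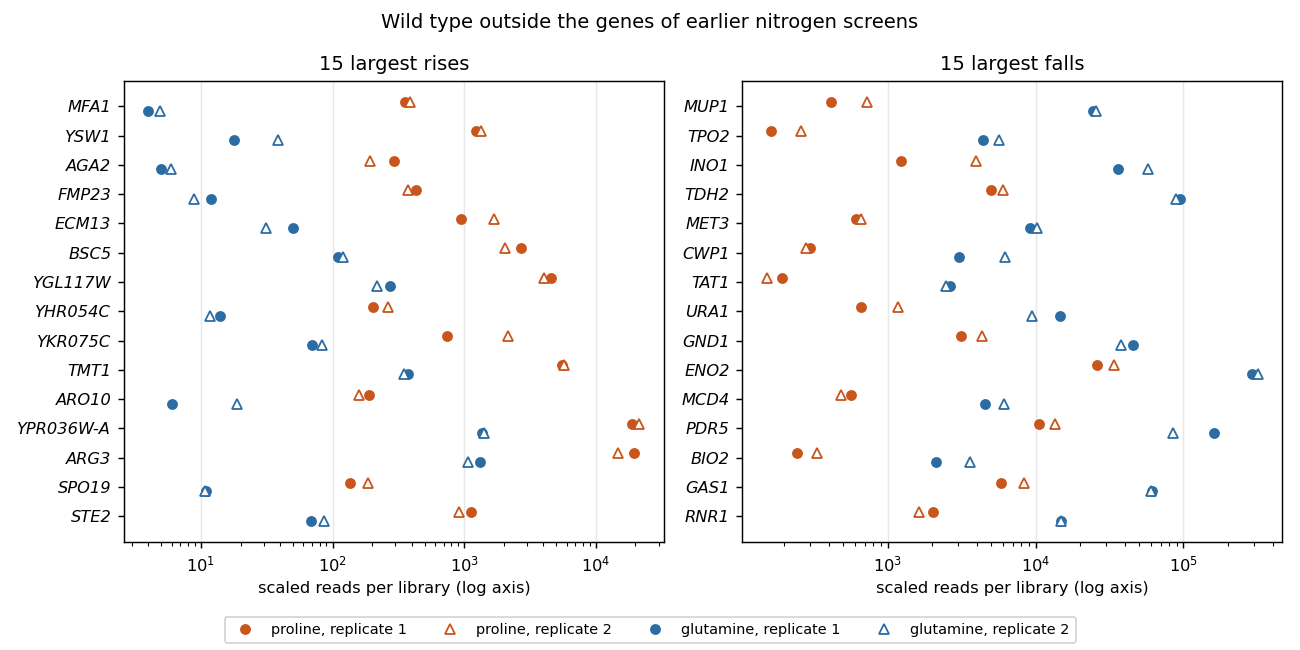
Scaled reads per library (log axis) of the 15 largest rises and 15 largest falls among called genes outside the earlier nitrogen screens; orange marks proline, blue glutamine, and circles and triangles replicates 1 and 2. All were chosen among genes whose proline libraries do not overlap the glutamine libraries.

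The 15 largest falls were in genes of nutrient uptake, glycolysis, sulfate assimilation, lipid synthesis and the cell wall. MUP1, the high affinity methionine permease gene, had 414 and 728 scaled reads in proline, against 24427 and 25448 in glutamine (log2 fold change -5.50, SE 0.25, limma adjusted p = 6.0e-06). TPO2, a gene for a spermine transporter of the plasma membrane, had 163 and 259 in proline, against 4384 and 5693 in glutamine (log2 fold change -4.60, SE 0.23, limma adjusted p = 9.7e-06). TAT1, a permease gene for branched-chain and aromatic amino acids, had 195 and 153 in proline, against 2641 and 2476 in glutamine. The proline libraries of all 3 transporters were an order of magnitude or more below both glutamine libraries. INO1 (YJL153C, chromosome 10 from 134332 to 135933), which encodes the first enzyme of inositol synthesis, had 1241 and 3986 in proline, against 36332 and 57543 in glutamine (log2 fold change -4.36, SE 0.57, limma adjusted p = 4.3e-04). CWP1, a mannoprotein gene of the birth scar, had 301 and 280.5 in proline, against 3026 and 6179.7 in glutamine, and PDR5, the gene of the main multidrug ABC transporter, had 10567 and 13491 in proline, against 159770.0 and 84754 in glutamine. The replicates of INO1 in proline and of CWP1 and PDR5 in glutamine stood apart from each other. BIO2, the biotin synthase gene, had 245 and 332 in proline, against 2134 and 3581 in glutamine, and its limma adjusted p was 0.033 without the first and 0.020 without the second proline library. All 15 were called lower under the deposited factors, and the same genes had log2 fold changes between -4.58 and -2.12 when libraries were scaled by totals.

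Arranged by function, 62 gene lists held 1578 of the tested genes. Calls went with level, as given above, and each list is set beside all tested genes and not beside genes of its own level. Whether level accounts for the counts of a list was not tested. As deposited, 42 of the 62 medians were below 0, and with totals 21 were, so the sign of 21 medians depends on the scaling. Arginine synthesis, mating, meiosis and the NCR genes were at one end, and glycolysis, fatty acid synthesis and ER glycosylation at the other. By share of ORF reads, 30 lists took more in both proline libraries than in either glutamine library and 23 took less.

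**Figure D3:**
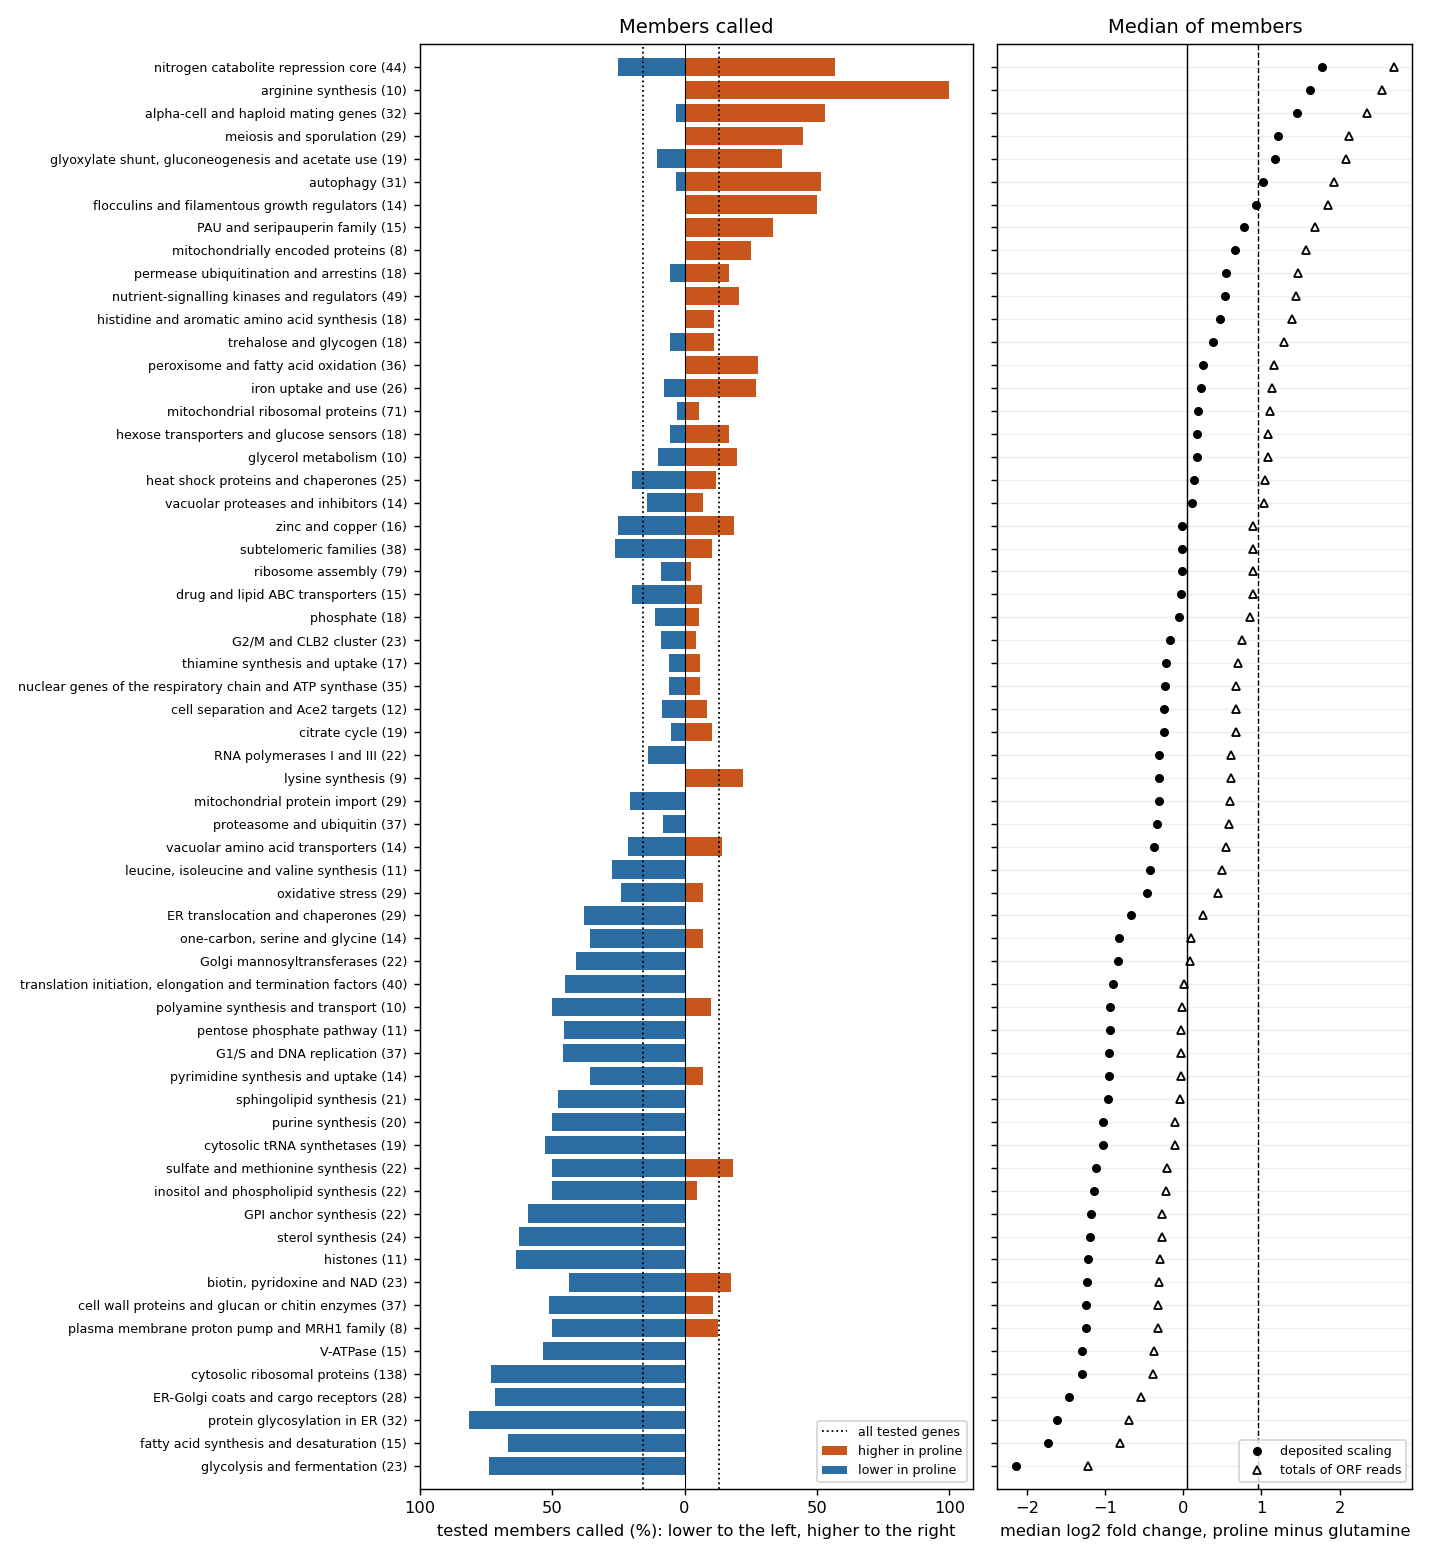
Left, percent of tested members of each of 62 lists (number of tested members in parentheses) called higher (orange, to the right) or lower (blue, to the left) in proline, with the share over all tested genes as dotted lines. Right, the median log2 fold change of each list, proline minus glutamine, under the deposited scaling (circles) and totals of ORF reads (triangles), with the median of all tested genes as a solid and a dashed line; the list at the top is the NCR core and the one at the bottom glycolysis.

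Arginine synthesis stood out among the biosynthetic lists. Arginine is made from glutamate through ornithine, and its genes are known targets of Gcn4, the activator of amino acid synthesis, and of the arginine repressor. All 10 members were called higher, between 1.09 for ARG4 and 3.84 for ARG3 (median log2 fold change 1.63, against 0.04 for all genes). ARG3 (YJL088W, chromosome 10 from 268799 to 269815), the ornithine carbamoyltransferase gene, had 19381 and 14774 scaled reads in proline, against 1311 and 1068 in glutamine (log2 fold change 3.84, SE 0.25, limma adjusted p = 2.9e-05). ARG1, the argininosuccinate synthetase gene, had 62152 and 62294 in proline, against 12128 and 9655 in glutamine, and ARG5,6, whose product is cut into 2 enzymes of ornithine synthesis, had 46974 and 43091 in proline, against 10646 and 8275 in glutamine. ORT1, the gene of the mitochondrial ornithine carrier, had 1362 and 1475 in proline, against 459 and 409 in glutamine. In each gene both proline libraries were above both glutamine libraries, as for every gene called higher. Together the list took 3.02% and 2.81% of ORF reads in proline, against 0.512% and 0.444% in glutamine. GCN4 itself had 23807 and 21528 scaled reads in proline, against 11685 and 9417 in glutamine (log2 fold change 1.11, called). These are reads on its coding sequence and no measure of its translation, which is where GCN4 is mainly regulated. Without the first proline library or the second glutamine library GCN4 was not called (log2 fold change 1.04 and 0.95), and ARG4 was not called without the first or the second proline library (limma adjusted p = 0.0116 and 0.0117).

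Most arginine genes held the Gcn4 core site upstream. In the 300 bases before the start codon (R64, both strands searched), TGACTC was found in 9 of 10 arginine genes, against 7.91% of all 5591 windows that could be read. ARG1 and ARG4 are shown, each as 150 bases in the direction of the gene with the site in capitals (ARG1, chromosome 15 from 218937 to 219086, plus strand, from 274 to 125 bases before the start codon; ARG4, chromosome 8 from 141432 to 141581, minus strand, from 179 to 30 bases before the start codon); in ARG1 the site reads in the other direction.
ARG1 upstream: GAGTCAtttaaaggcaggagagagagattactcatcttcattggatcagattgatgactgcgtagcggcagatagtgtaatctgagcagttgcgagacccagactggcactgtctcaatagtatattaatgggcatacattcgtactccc
ARG4 upstream: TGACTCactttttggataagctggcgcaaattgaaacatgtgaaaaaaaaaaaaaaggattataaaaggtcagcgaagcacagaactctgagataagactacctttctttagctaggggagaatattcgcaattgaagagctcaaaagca
A match is a description of the letters and not evidence of binding in these cultures. ARG3 had no match in its window.

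Other amino acid pathways did not move as one. Of 18 genes of histidine and aromatic amino acid synthesis, HIS5 (log2 fold change 1.48) and ARO3 (1.41) were called higher, and the median was 0.47. With totals 12 of the 18 were higher and the median was 1.39. The list took 1.82% and 1.94% of ORF reads in proline, against 0.959% and 0.878% in glutamine. In lysine synthesis LYS14, the pathway activator gene, had 3601 and 3000.3 scaled reads in proline, against 959 and 931 in glutamine and was called higher, while the median of the 9 genes was -0.31 (0.61 with totals). In leucine, isoleucine and valine synthesis LEU1, LEU2 and BAT1 were called lower, and LEU1, the isopropylmalate isomerase gene, had 4011 and 4529 in proline, against 21461 and 18779 in glutamine. With totals 2 of these 11 genes were lower and 3 higher. Sulfate and methionine genes were split. Of 22 members 11 were lower and 4 higher (8 and 7 with totals). MET3, the ATP sulfurylase gene, had 612 and 659 scaled reads in proline, against 9177 and 10179 in glutamine (log2 fold change -3.93, SE 0.13, limma adjusted p = 2.1e-06), and SAM2, an S-adenosylmethionine synthetase gene, had 3808 and 6349 in proline, against 37573 and 41018 in glutamine. CYS3, which makes cysteine from cystathionine, had 2212 and 2855 in proline, against 14853 and 17253 in glutamine. The higher members included STR2 (log2 fold change 2.64) and STR3 (1.50), whose enzymes convert cysteine back toward homocysteine, and the sulfate permease gene SUL1 (2.31).

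Many mating genes were called higher in proline, and among them were genes that MATα cells normally keep off. In α cells the a-specific genes are repressed by the α2 protein together with Mcm1, while pheromone-response genes are turned on by Ste12 when a mating signal reaches the cell. Of the 32 tested genes of the mating list 17 were higher and 1, HO, was lower (median log2 fold change 1.46; 26 higher and 1 lower with totals). Without the second glutamine library MF(ALPHA)2 was called lower too, which made 2. All 7 a-cell marker genes were among the higher ones, with a sum of 2511 and 2197 scaled reads in proline, against 193 and 242 in glutamine. MFA2, the second a-factor gene, had 123 and 144 in proline, against 5 and 1.97 in glutamine, and STE2 (YFL026W, chromosome 6 from 82580 to 83875), the α-factor receptor gene, had 1131 and 918 in proline, against 69 and 85.5 in glutamine (log2 fold change 3.71, SE 0.16, limma adjusted p = 5.3e-06). BAR1, the α-factor protease gene, had 191 and 182 in proline, against 21 and 19.7 in glutamine, and STE6, the a-factor exporter gene, had 369 and 333 in proline, against 86 and 119 in glutamine. BAR1 is in the earlier screens. ASG7 had 50.7 and 40.3 in proline, against 3 and 4.92 in glutamine. Both proline libraries were above both glutamine libraries for all 7 genes, as for every gene called higher, and none of the 7 was at 0 in any library.

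The a-cell levels were set beside the MATa libraries of the study. HMRA1, the a1 gene, which a MATa cell expresses and a MATα cell holds silent, had 0 reads in each of the 4 wild-type libraries, and 502 and 905 reads in the dal80Δ libraries in proline, which are MATa; 0 reads allow up to 3 reads a library, for counting error only. The reference genome is MATα, so a1 reads of a MATa cell fall on this silent cassette. As a percent of the mean of the dal80Δ libraries, the wild type in proline had 27.5% for MFA1, 9.08% for MFA2, 52.2% for STE2, 81.0% for BAR1, 25.0% for STE6, 188% for ASG7 and 219.7% for AGA2, so the 7 genes were not at 1 common ratio. What raised the a-cell genes, including any difference between the cultures that the labels do not name, was not tested. Reads on the α1, α2 and HMRA2 genes come from near-identical cassettes and cannot be told apart.

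The same list also holds pheromone-response genes that both mating types express, some called and some not. Those named here were chosen after their values were seen. AGA1, the anchor subunit of a-agglutinin, had 8034 and 5894 scaled reads in proline, against 1700.0 and 1687 in glutamine (log2 fold change 2.02), and FUS1, a gene for cell fusion, had 1396 and 844 in proline, against 400.0 and 401 in glutamine (1.44). PRM2, needed for nuclear fusion, had 402 and 297 in proline, against 30.0 and 31.5 in glutamine (3.45), and KAR4, a transcription factor gene of the same response, had 955 and 963 in proline, against 232 and 248 in glutamine (2.00). FUS2 (2.62), PRM1 (2.20) and FIG2 (1.70) were also called. FAR1, which arrests the cell cycle in response to pheromone, had 4218 and 3254 in proline, against 2122 and 2057 in glutamine (log2 fold change 0.83), and FUS3, its kinase, had 1246 and 1169 in proline, against 626 and 637 in glutamine (0.93), both short of the fold threshold. STE4 (0.07) and STE5 (0.36), the G protein β subunit and the scaffold of the pathway, were not called. HO, the mating-type switching endonuclease gene, had 76.8 and 109.8 in proline, against 841 and 681 in glutamine, the opposite direction. HO in laboratory strains is usually a defective allele, and the state of this one is not given.

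**Figure D4:**
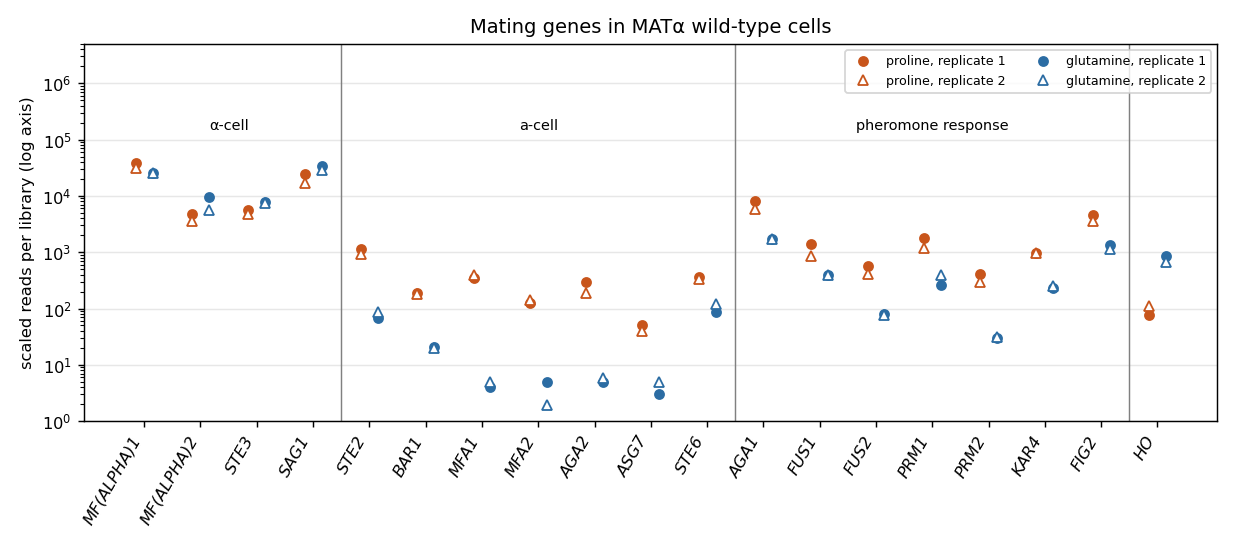
Scaled reads per library (log axis) of mating genes in MATα wild-type cells, with α-cell, a-cell and pheromone-response genes and HO separated by lines; orange marks proline, blue glutamine, circles and triangles replicates 1 and 2. The 7 a-cell genes reach at most 119 scaled reads in glutamine and lie higher in both proline libraries, while the lowest value of an α-cell gene is 3606.

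The pheromone response element TGAAACA, to which Ste12 binds, was present in 19 of the 32 upstream windows of the list, 12 of them of genes called higher, against 7.06% of all windows. FUS1 and AGA2 are shown with it in capitals (FUS1, chromosome 3 from 71616 to 71765, plus strand, from 187 to 38 bases before the start codon; AGA2, chromosome 7 from 436883 to 437032, minus strand, from 199 to 50 bases before the start codon, where it reads in the other direction).
FUS1 upstream: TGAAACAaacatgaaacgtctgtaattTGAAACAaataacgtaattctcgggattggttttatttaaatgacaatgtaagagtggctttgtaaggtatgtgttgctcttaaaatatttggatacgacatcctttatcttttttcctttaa
AGA2 upstream: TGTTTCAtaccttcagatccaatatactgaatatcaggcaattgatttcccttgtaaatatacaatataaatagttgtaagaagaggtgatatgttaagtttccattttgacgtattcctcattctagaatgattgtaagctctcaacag
FUS1 holds 2 copies and AGA2 holds 1 in the window. MFA1 and ASG7 had no match. Over all genes called higher, 8.01% of windows held the element, close to the share of all windows.

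Genes of starvation programs were higher in part. Of 31 autophagy genes 16 were called higher (26 with totals) and 1, ATG27, lower as deposited but not with totals or with the trimmed mean factors of edgeR (TMM) (median log2 fold change 1.01), and the list took 0.274% and 0.213% of ORF reads in proline, against 0.0649% and 0.0711% in glutamine. ATG1, the kinase gene that starts autophagy, had 2840.3 and 2080.5 scaled reads in proline, against 432 and 511 in glutamine (log2 fold change 2.37, SE 0.18, limma adjusted p = 5.2e-05). YLR312C, now named ATG39 for its role as a receptor of nuclear envelope autophagy, had 839 and 487 in proline, against 33 and 63.9 in glutamine, and it is in the earlier screens. ATG8, whose product marks the autophagosome membrane, had 308 and 198 in proline, against 89 and 107 in glutamine. Of 29 meiosis and sporulation genes with enough reads, 13 were called higher (24 with totals), 8 without the first and 7 without the second proline library. SPS1, a sporulation kinase gene, had 194 and 286 scaled reads in proline, against 25 and 40.3 in glutamine, and RED1, of the chromosome axis in meiosis, had 155 and 155 in proline, against 32 and 40.3 in glutamine. These genes stayed low in both media: the whole list took 0.0658% and 0.0571% of ORF reads in proline, against 0.0150% and 0.0178% in glutamine. IME1, the inducer of meiosis, had 57.6 and 50.5 in proline, against 29 and 27.5 in glutamine (log2 fold change 0.91, not called). Haploid cells do not sporulate.

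Of 14 adhesion and filamentous growth genes 7 were called higher (13 with totals) and the others were not called (median log2 fold change 0.93). MUC1, also called FLO11, the flocculin gene of filamentous growth, had 455 and 364 scaled reads in proline, against 127 and 122 in glutamine (log2 fold change 1.70, SE 0.15, limma adjusted p = 8.8e-05). PHD1, an activator gene of pseudohyphal growth, had 1673 and 1686 in proline, against 471 and 477 in glutamine, and TEC1, the partner of Ste12 in this program, had 968 and 655 in proline, against 309 and 286 in glutamine. FLO1, FLO9 and FLO10 were called too, at log2 fold changes of 1.16, 1.30 and 1.26, but flocculin genes share repeats, so their values are uncertain. The PAU family had 5 of 15 tested members higher (10 with totals), 2 without the second proline library, and its members are near-identical copies as well.

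Glycolysis was the list with the lowest median, with glucose in both media. Of 23 members 17 were lower, 13 of them also with totals (median log2 fold change -2.14 as deposited and -1.22 with totals), and the list took 5.53% and 5.73% of ORF reads in proline, against 16.2% and 17.9% in glutamine. TDH2, a glyceraldehyde-3-phosphate dehydrogenase gene, had 5013 and 6045 scaled reads in proline, against 94545 and 89424 in glutamine (log2 fold change -4.06, SE 0.21, limma adjusted p = 1.1e-05). TPI1, the triose phosphate isomerase gene, had 9638 and 12308 in proline, against 71526 and 81301 in glutamine. ENO2, the main enolase gene, had 26198 and 33906 in proline, against 292400.0 and 318615 in glutamine, and its paralog ENO1 had 15396 and 13999.5 in proline, against 88072 and 131087 in glutamine. The proline libraries of all 4 were several fold below both glutamine libraries. Reads that fit paralogs equally are not uniquely mapped, so levels of close paralogs are uncertain. The hexokinase gene HXK2 fell by 2.09 on the log2 scale and was called, while HXK1 had -0.36 and PDC5 -0.34, not called. In the pentose phosphate pathway GND1, the 6-phosphogluconate dehydrogenase gene, had 3124 and 4354 scaled reads in proline, against 45295 and 37999 in glutamine (log2 fold change -3.49, SE 0.20, limma adjusted p = 1.7e-05), and TKL1, the transketolase gene, had 9643 and 11433 in proline, against 49268 and 45922 in glutamine.

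Genes for carbon sources other than glucose moved the other way in part. Of 19 genes of the glyoxylate shunt, gluconeogenesis and acetate use 7 were higher and 2 lower (14 higher with totals). MLS1, the malate synthase gene, had 209.8 and 191 scaled reads in proline, against 13 and 9.83 in glutamine, and PCK1, the gluconeogenic carboxykinase gene, had 378 and 588 in proline, against 84 and 103 in glutamine; both are in the earlier screens. The 2 lower members became 1 without either proline or either dal80Δ library. Peroxisome and fatty acid oxidation genes had 10 of 36 members higher (20 with totals), among them PEX21, a gene for import into peroxisomes, with 1383 and 1527 in proline, against 275 and 228 in glutamine, and POX1, the acyl-CoA oxidase gene, with 158 and 169.9 in proline, against 19 and 44.2 in glutamine. HXT5, a hexose transporter gene of slow growth, had 3488 and 2005 in proline, against 30.0 and 171 in glutamine, and MTH1, a repressor gene of the hexose transporters, had 428 and 647 in proline, against 77 and 95.4 in glutamine; HXT5 is in the earlier screens. HXT1 (0.38) and HXT3 (-0.43), the low affinity transporters, were not called. GAC1, which directs a phosphatase to glycogen synthase, had 746 and 713 in proline, against 62 and 114 in glutamine, and GLG1, the primer of glycogen, had 965 and 857 in proline, against 212 and 188 in glutamine, while the synthase genes GSY1 (0.23) and GSY2 (-0.24) were not called. GAC1 and GLG1 were the 2 genes called higher of 18 in the trehalose and glycogen list, below the background share. PGM1 of that list was called lower at -2.06 (8 higher and 1 lower with totals).

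Few nuclear genes of respiration were called, and in both directions. Of 19 citrate cycle genes 2 were higher and 1 lower as deposited, below the background shares of 13.0% and 15.6% (7 higher with totals). In the citrate cycle IDH2, a subunit gene of isocitrate dehydrogenase, had 3659 and 4154 scaled reads in proline, against 1109 and 1812 in glutamine (log2 fold change 1.46), and FUM1, the fumarase gene, had 2158 and 2108 in proline, against 4309 and 4936 in glutamine (-1.11). IDH1, the other subunit, was called at 1.22 but not without the first glutamine (0.89), the second proline (0.93) or either dal80Δ library. Among 35 nuclear genes of the respiratory chain and ATP synthase 2 were higher and 2 lower as deposited, also below the background shares (11 higher with totals). NDE2, an external NADH dehydrogenase gene, had 718 and 405 in proline, against 53 and 181 in glutamine (log2 fold change 2.45), and COX5B, a cytochrome oxidase subunit gene, had 1160.0 and 1102 in proline, against 340.0 and 648 in glutamine (1.27). CYC1, the main cytochrome c gene, had 101 and 117 in proline, against 323 and 483 in glutamine (-1.85). Leaving out 1 library cost these 3 genes their calls: NDE2 without either proline or either dal80Δ library (limma adjusted p up to 0.038), COX5B without any single one except the second glutamine library (up to 0.051), and CYC1 without either proline library (up to 0.018). ATP2, a catalytic subunit gene of the synthase, had 10790.0 and 10494 in proline, against 25969 and 31382 in glutamine and was called lower, with a list median of -0.24 (0.68 with totals). Mitochondrially encoded proteins took 1.85% and 1.55% of ORF reads in proline, against 0.526% and 0.395% in glutamine. Of the 8 genes 2 were called higher as deposited and 6 with totals (median log2 fold change 0.66 and 1.57). OLI1, a subunit gene of the ATP synthase encoded in mitochondria, had 6957 and 6649 scaled reads in proline, against 2379 and 2051 in glutamine (log2 fold change 1.62, SE 0.13, limma adjusted p = 6.5e-05). COX1 was called too (log2 fold change 1.18), but without either proline library, the second glutamine library or either dal80Δ library OLI1 was the 1 call in this list of 8 (highest limma adjusted p of COX1 = 0.042).

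Part of the lipid synthesis genes were called lower, and fewer with totals. Of 15 genes of fatty acid synthesis and desaturation 10 were lower (4 with totals), and the list took 1.28% and 1.49% of ORF reads in proline, against 2.64% and 2.60% in glutamine. FAS1, the gene of the β subunit of fatty acid synthase, had 35830.5 and 41148 scaled reads in proline, against 162050.0 and 156447 in glutamine, and ACC1, the acetyl-CoA carboxylase gene, had 22357 and 27738 in proline, against 101580.0 and 98392 in glutamine. FEN1 and SUR4, the elongases for very long chains, had log2 fold changes of -2.74 and -2.33. In each the proline libraries lay below both glutamine libraries, as for every gene called lower. Of 22 genes of inositol and phospholipid synthesis 11 were lower and PCT1, of the choline branch, was higher at 1.75, while with totals 4 were lower and 6 higher. CHO1, the phosphatidylserine synthase gene, had 3335 and 4757 in proline, against 17126 and 23117 in glutamine, and ITR1, the inositol permease gene, had 16332 and 26256 in proline, against 89674 and 111574 in glutamine. The regulators INO2 (0.09), INO4 (0.84) and OPI1 (0.05) were not called. Sphingolipid genes had 10 of 21 lower, KEI1 most at -1.71, and 9 with TMM factors, but all 10 calls were lost with totals (limma), and the median was -0.97 as deposited and -0.05 with totals. Sterol genes, with 15 of 24 lower (4 lower and 1 higher with totals), took 0.648% and 0.605% of ORF reads in proline, against 0.898% and 0.862% in glutamine.

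The Ino2 and Ino4 site of phospholipid genes, searched as CATGTGAA, was in 11 of 22 upstream windows of the list, 7 of them of genes called lower, against 0.912% of all windows, 1.97% of the genes called lower and 0.414% of those called higher. INO1 holds 2 copies in opposite directions (chromosome 10 from 136027 to 136176, minus strand, from 243 to 94 bases before the start codon), in capitals.
INO1 upstream: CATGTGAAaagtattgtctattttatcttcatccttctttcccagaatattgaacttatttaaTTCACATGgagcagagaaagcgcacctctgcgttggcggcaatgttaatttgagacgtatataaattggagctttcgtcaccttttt

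Lists of the secretory pathway held many of the genes called lower. Proteins enter it at the ER, receive sugars and GPI anchors there, travel in coated vesicles to the Golgi and end in the cell wall, the plasma membrane or the vacuole. In ER glycosylation 26 of 32 genes were lower (10 with totals), and the list took 0.456% and 0.466% of ORF reads in proline, against 0.862% and 0.918% in glutamine. PMT4, an O-mannosyltransferase gene, had 1875 and 2016 scaled reads in proline, against 12158 and 12394 in glutamine (log2 fold change -2.66, SE 0.15, limma adjusted p = 1.6e-05), and SEC53, the phosphomannomutase gene that feeds all glycosylation, had 1754 and 2091 in proline, against 11318 and 10484 in glutamine. Of 28 genes of ER-Golgi coats and cargo receptors 20 were lower (6 with totals). SAR1, the GTPase gene of the COPII coat, had 1339 and 1558 in proline, against 8677 and 8985 in glutamine, and SEC27, of the COPI coat, had 1821 and 2046 in proline, against 10241 and 10886 in glutamine. The replicates of these 4 genes were close to each other in each medium. In ER translocation and chaperones 11 of 29 were lower (3 lower and 5 higher with totals, where the median of -0.67 turned to 0.25). KAR2, the BiP chaperone gene of the ER, had 4064 and 3859 in proline, against 15208 and 24582 in glutamine, and PDI1, the disulfide isomerase gene, had 4665 and 4651 in proline, against 20143 and 28886 in glutamine. MCD4, a gene of GPI anchor synthesis, had 566 and 487 in proline, against 4560.0 and 6129 in glutamine (log2 fold change -3.33, SE 0.17, limma adjusted p = 9.7e-06), with 13 of 22 in its list lower (2 lower and 2 higher with totals). Of 22 genes of the Golgi mannosyltransferase list 9 were lower (2 lower and 2 higher with totals, with a median of 0.08). VRG4, the Golgi transporter gene for GDP-mannose, had 1699 and 2179 in proline, against 10151 and 10385 in glutamine.

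At the end of that route, 19 of 37 cell wall genes were lower and 4 higher (9 and 7 with totals; without the second proline library 2 were higher). GAS1, the glucanosyltransferase gene, had 5872 and 8334 scaled reads in proline, against 61198 and 60668 in glutamine (log2 fold change -3.12, SE 0.21, limma adjusted p = 3.2e-05). SCW10, a glucanase-like gene of the wall, had 1560.3 and 1816 in proline, against 12679 and 12409.6 in glutamine, and CIS3, a Pir family wall protein gene, had 1119 and 1437 in proline, against 9007 and 10201 in glutamine. All of these were lower with totals as well. TIP1 (log2 fold change 1.96) and TIR4 (1.90), mannoproteins known from cold or low oxygen, were higher. Of 15 V-ATPase genes 8 were lower, and with totals 1 was lower and 2 higher. VMA3, the proteolipid subunit gene, had 6578 and 7294 in proline, against 27258 and 27210.4 in glutamine. PMA1, the plasma membrane H+-ATPase gene, had 109988 and 119856 in proline, against 384522 and 420144 in glutamine, and its paralog PMA2 the opposite, with 2253 and 2243 in proline, against 426 and 781 in glutamine. PMA1, a gene of the earlier screens, was not called without the first proline library (limma adjusted p = 0.0111).

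Of 138 cytosolic ribosomal protein genes 101 were lower (21 with totals, where 3 were higher), and they took 6.38% and 7.99% of ORF reads in proline, against 12.2% and 10.3% in glutamine. RPP0, the stalk protein gene, which has no close copy, had 9987 and 14303 scaled reads in proline, against 73542 and 69975 in glutamine. TEF4, an elongation factor gene, had 4002 and 5528 in proline, against 36046 and 32550.5 in glutamine. Of 19 cytosolic tRNA synthetase genes 10 were lower as deposited and 8 with TMM factors, but all 10 calls were lost with totals (limma), where 1 gene was higher. Their median was -1.03 as deposited and -0.11 with totals, and their share was 1.15% and 1.30% of ORF reads in proline, against 1.30% and 1.10% in glutamine, which overlaps between the media. GRS1, the glycine enzyme gene, had 3878 and 4729 in proline, against 14535 and 12692 in glutamine. Ribosome assembly, a list of 79, had 7 lower and 2 higher, both below the background shares as deposited, 6 lower and 8 higher with TMM factors and 34 higher with totals, and took 0.894% and 1.11% of ORF reads in proline, against 0.835% and 0.636% in glutamine. Its counts moved to 4 lower and 6 higher without the first proline library, 4 lower and 7 higher without the first glutamine library, and 1 higher without the second proline library.

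Part of the nucleotide synthesis and replication genes were called lower. Of 20 purine genes 10 were lower (4 with totals), among them ADE17, of the last steps to IMP, with 3653 and 4939 scaled reads in proline, against 33916 and 24575 in glutamine, and ADE5,7, with 5596 and 7607 in proline, against 37539 and 31782 in glutamine. Of 14 pyrimidine genes 5 were lower and 1 higher (2 and 3 with totals). URA1, the dihydroorotate dehydrogenase gene, had 666 and 1170.2 in proline, against 14704 and 9437 in glutamine (log2 fold change -3.74, SE 0.30, limma adjusted p = 6.1e-05), while URA10, the minor orotate phosphoribosyltransferase gene, had 623 and 550.0 in proline, against 148 and 166 in glutamine and was higher. Of 37 genes of G1/S and DNA replication 17 were lower (6 with totals). RNR1, the large subunit gene of ribonucleotide reductase, had 2029 and 1622 in proline, against 14827 and 14954 in glutamine (log2 fold change -3.04, SE 0.16, limma adjusted p = 1.1e-05), CLN2, a G1 cyclin gene, had 283 and 185 in proline, against 1267 and 1301 in glutamine, and POL30, the PCNA gene, had 169 and 185 in proline, against 922 and 782 in glutamine. The proline libraries lay below both glutamine libraries in each, as for every gene called lower. The MCM helicase genes ranged from -0.79 for MCM2 to -0.01 for MCM7 and were not called. Histone genes, read here without poly(A) selection, had 7 of 11 lower (2 lower and 1 higher with totals), and HTB2 had 945 and 1301 in proline, against 6462 and 5526 in glutamine. In the G2/M list of 23 genes 1 was higher and 2, BUD3 (-1.09) and FKH1 (-1.10), were lower, below the background shares. With totals 10 were higher and 0 lower, and the median of -0.17 turned to 0.75. The higher gene was CDC20, the activator gene of the anaphase-promoting complex, with 1196 and 1110.2 in proline, against 348 and 329 in glutamine. It starts at 289809 of chromosome 7, after the end of YGL117W at 289309 on the same strand. Whether reads from YGL117W add to those of CDC20 was not tested.

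The MBF site ACGCGT of G1/S promoters was in 16 of 37 upstream windows of that list, 12 of them of genes called lower, against 3.63% of all windows, 5.78% of genes called lower and 2.07% of genes called higher. CDC21, the thymidylate synthase gene (log2 fold change -1.92), holds 2 copies (chromosome 15 from 467598 to 467747, minus strand, from 158 to 9 bases before the start codon), in capitals.
CDC21 upstream: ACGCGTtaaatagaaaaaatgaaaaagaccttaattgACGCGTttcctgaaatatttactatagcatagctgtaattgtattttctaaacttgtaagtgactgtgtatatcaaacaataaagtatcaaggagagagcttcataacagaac

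Vitamin and metal genes were mixed. SNZ1 and SNO1, a divergent pair for pyridoxine synthesis that is known to rise when growth stops, had 4747 and 3838 scaled reads in proline, against 545 and 521 in glutamine for SNZ1 and 755 and 603 in proline, against 54 and 67.8 in glutamine for SNO1. Of the pair, SNO1 is in the earlier screens. In NAD synthesis BNA5, the kynureninase gene, had 764 and 869 in proline, against 2802 and 3569 in glutamine. The list of biotin, pyridoxine and NAD had 4 of 23 higher and 10 lower as deposited, 7 higher and 2 lower with totals, and 6 lower without the first proline library. PHM8, a phosphatase gene, had 2296 and 2298 in proline, against 302 and 437 in glutamine, and PHO3, a thiamine-repressible acid phosphatase gene, had 991 and 981 in proline, against 4248 and 6666 in glutamine. AFT2, an activator gene of iron uptake, had 570.4 and 679.6 in proline, against 192 and 157 in glutamine, and FIT1, a wall mannoprotein gene of siderophore capture, had 264 and 229 in proline, against 67 and 62.9 in glutamine. ZAP1, the zinc regulator gene, had 803 and 1029.6 in proline, against 328 and 395 in glutamine, while ZRC1, which carries zinc into the vacuole, had 2998 and 3369 in proline, against 7735 and 8174 in glutamine.

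Among 49 nutrient-signalling genes 10 were higher (35 with totals). RTG3, the retrograde-signalling activator gene, had 910.4 and 957 scaled reads in proline, against 238 and 167 in glutamine (log2 fold change 2.22, SE 0.18, limma adjusted p = 6.5e-05), and its partner RTG1 had 189 and 181 in proline, against 209 and 205 in glutamine (log2 fold change -0.16, not called). HAP4, the activator subunit gene of respiration, had 604 and 1109 in proline, against 283 and 209 in glutamine, and MIG2, a glucose repressor gene, had 2072 and 4002 in proline, against 851 and 747 in glutamine. MIG2 is in the earlier screens. MIG1, its paralog, was called at 1.47, and SIP4, an activator gene of gluconeogenesis, at 1.61. The kinase genes TOR1 (0.46), TOR2 (-0.05), SNF1 (0.07) and SCH9 (-0.04) were not called. RTC2, a vacuolar transporter gene, had 8033 and 7738 in proline, against 1043 and 928 in glutamine, the largest change among the 14 tested genes of vacuolar amino acid transporters. Of these 14 genes 2 were called higher and 3 lower, with a median of -0.37 (4 higher and 0 lower with totals, median 0.55). HSP42, a small heat shock gene in the earlier screens, had 1701 and 1003 in proline, against 178 and 221 in glutamine, while SSB1, a ribosome-bound chaperone gene, had 11286 and 15552 in proline, against 80906 and 68049.7 in glutamine, and SSB1 and SSB2 are near-identical. RIM8, an arrestin-like gene, had 468 and 567 in proline, against 152 and 134 in glutamine, and RSP5, the ubiquitin ligase gene for permeases, had 3566 and 3700.3 in proline, against 8709 and 8784 in glutamine.

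**Figure D5:**
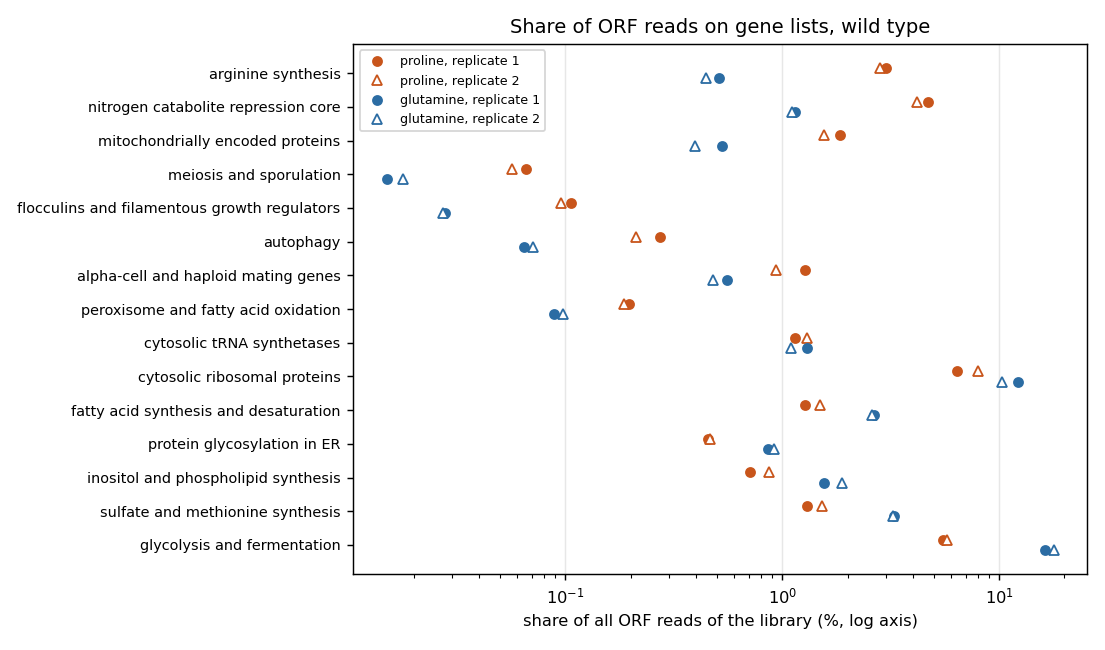
Share of all ORF reads of each library (%, log axis) on 15 gene lists; orange marks proline, blue glutamine, circles and triangles replicates 1 and 2. Arginine synthesis is at 3.02% and 2.81% in proline, against 0.512% and 0.444% in glutamine, while tRNA synthetases overlap between the media.

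Upstream sites were also counted over all called genes, in the 300 bases before the start of 5591 tested ORFs, 9 motifs on both strands (ACGCGT and CACGTG read the same on either) and with no test; matches of TGAAACA and CATGTGAA can share bases. GATAAG, the core to which the GATA factors bind, was in 22.4% of windows of genes called higher, 12.7% of those called lower and 14.9% of all. Without the genes of earlier screens the share among the higher genes was 18.1%, and 2 or more copies were in 1.43%, against 1.72% of all windows. TGACTC was in 13.95% of windows of higher genes and 6.82% of lower genes, against 7.91% of all. AGGGG, the stress response element core, was in 24.9% and 20.0%, against 22.6% of all. CACGTG was in 2.07% of the higher and 4.16% of the lower genes, against 3.65% of all. GATTAG was in 11.3% and 8.55%, against 10.7% of all. GATGAG, of the PAC element of ribosome assembly genes, was in 18.2% and 16.4%, both below the 18.8% of all windows.

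The densest ORFs changed place between the media. In proline CCW12, a wall protein gene, was the densest ORF, with 278 scaled reads per nucleotide in proline and 437 in glutamine, and in glutamine TDH3 was, with 101 in proline and 601 in glutamine. ARG1 entered the 10 densest ORFs of proline, with 49.3 in proline and 8.62 in glutamine, as did MF(ALPHA)1, the α-factor gene, with 69.4 in proline and 51.4 in glutamine. YOR302W, the short upstream reading frame of the arginine gene CPA1, was among them too, with 78.3 in proline and 33.5 in glutamine. CCW12 was not called, and its log2 fold change of -0.65 turns to 0.27 with totals.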

How the data were processed

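Strand-specific, rRNA-depleted total RNA was sequenced as paired ends. The authors aligned reads with TopHat to build R64 (submitters' processing notes) and kept uniquely mapped reads; the tool that counted them is not given in the sources used here. The deposited table holds counts (whole reads) for the first glutamine library and, as a signal, reads that the authors multiplied by a factor of each other library (0.551 to 0.983), with densities per nucleotide. Division by the factor gave whole reads for 100% of 11987 values per library, within 1e-06. 6 columns of authors' means were not used. Depth was 12304015 to 19968312 ORF reads per library, and limits at 0 reads cover counting error only.

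Genes were filtered with filterByExpr (146 of 5791 ORFs removed). Log2(scaled reads + 1) of 6 libraries in 3 groups was fitted with limma 3.58.1 (R 4.3.3) with a trend, 3 residual and 4.54 prior degrees of freedom, contrast wild type in proline minus wild type in glutamine. Fold changes on this scale understate those of genes with few reads. Alternatives were edgeR 4.0.16 and DESeq2 1.42.0 on recovered reads, TMM factors, totals of ORF reads, a pseudocount of 8, no filter, fewer libraries and a replicate block. Only the limma fit was tried on simulated data, and its outcome is not given here.

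The members and the 62 gene lists were chosen with earlier results of these data known. Genes named are the 15 largest rises and falls outside 205 genes that the authors list from earlier screens, with non-overlapping media and a mean log2 CPM of at least 2, up to 4 called members a list, the 10 densest ORFs a medium, checks of media and strain, and others named after their values were seen to complete a group. Upstream windows were read from the R64 reference genome where ORF coordinates matched (5754 of 5786).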

Additional observations from a re-analysis of the deposited data

How the results depend on the processing

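With libraries scaled by totals of ORF reads, 2661 genes were higher and 189 lower, and the median of all genes was 0.96; it was 0.16 with TMM factors and 0.15 in edgeR. With no fold threshold 1298 were higher and 1438 lower. Leaving out 1 library gave 634 to 807 higher and 772 to 926 lower genes, with a median of 0.03 to 0.04. No called gene took the opposite call in any of the alternatives. TMM factors called 914 higher and 757 lower, edgeR 916 and 757, and DESeq2 761 and 889, so the split between higher and lower depends on the scaling. Other settings (pseudocount 8, no filter, 4 wild-type libraries) gave 685 to 743 higher and 861 to 881 lower. The replicate block gave 706 higher and 870 lower. Same-numbered wild-type cultures of the media deviated in opposite directions (r = -0.24 across genes). With 2 cultures a medium this cannot decide whether the numbers pair them, and the labels do not say. Crossed pairs over the 4 wild-type libraries, chosen after seeing the data, gave 725 and 879, and their own numbers 638 and 797. The rules for naming picked 265 genes, not all of them named in the text, and 65 of these lost their call with totals. Signs turned with totals for MF(ALPHA)2 (0.085), STE3 (0.35), SAG1 (0.27) and CCW12 (0.27), without the second proline library for TRP1 (-0.26), and without the first glutamine library for TRP1 (-0.25) and HOR7; with 1 library left out HOR7 ranged from -0.094 to 1.10, the highest without the second glutamine library, where it was called, and TRP1 ranged from -0.26 to 0.35. The cause of these shifts was not tested. Genes with few reads are limited by counting error.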
